A study of Rattus norvegicus with 70 samples.

Results

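The genes described here are 10 that carry gonadal steroid synthesis and the response to luteinizing hormone (LH): Lhcgr, Scarb1, Star, Cyp11a1, Cyp17a1, Hsd17b1, Hsd17b3, Cyp19a1, Insl3 and Nr5a1. They are the rows of the deposited read count table with those symbols, 10 of 17048 gene rows, and all 10 were found. They were chosen from a known pathway, but with the measured differences between groups in these same libraries already known, so their values are given as a description and without p-values. The table holds 70 libraries of 3′ mRNA tags from Sprague-Dawley rats killed on postnatal day 63, in 8 sets by organ and sex: ovary, testis, and liver, kidney and thyroid of each sex. Each set has 3 rats per group, except the female kidney with 2 vehicle, 2 BPA and 3 Mix rats. Sample codes recur across organs: the organs of each sex came from the same rats, so the sets are not independent of each other. In the vehicle and BPA female kidneys the replicate numbers do not follow those of the other female organs. No group differs in genotype: all are rats of this one outbred stock, and controls received the vehicle alone.

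Dams received 500 mg/kg/day of bisphenol between gestational day 6 and day 6 of lactation, and their pups 250 mg/kg/day from day 7 to day 63. The BPA group received bisphenol A, and the Mix group received bisphenols A, F and S together, which for the dams were 160, 160 and 180 mg/kg/day. The 3 compounds each hold a pair of phenol rings, joined by an isopropylidene bridge in bisphenol A, a methylene bridge in bisphenol F and a sulfonyl bridge in bisphenol S. As no group analysed here received bisphenol F or S alone, the difference between Mix and BPA cannot be assigned to a bridge. Litters had been culled on day 4 to 3 pups of each sex per dam, and groupmates may be littermates; litter, oestrous cycle stage and hour of collection are not in the labels. The spread between rats is therefore the only error available, and it may be smaller than that between litters.

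In the ovary, LH binds the receptor encoded by Lhcgr on theca, mature granulosa and luteal cells and raises cyclic AMP, which drives cholesterol into steroid synthesis. Scarb1 takes up cholesterol from high-density lipoprotein, Star moves it to the inner mitochondrial membrane, and Cyp11a1 cuts its side chain to give pregnenolone. Cyp17a1 then makes androgens in theca and Leydig cells, and Cyp19a1 (aromatase) turns them into oestrogens in granulosa cells, with Hsd17b1 and Hsd17b3 reducing 17-keto steroids in the ovary and the testis respectively. Insl3 is a peptide hormone of Leydig and theca cells, and Nr5a1 (SF-1) is the nuclear receptor that binds the promoters of most of these genes. In rodents, luteal cells keep Star, Cyp11a1 and Scarb1 high and have little Cyp17a1.

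As SF-1 binds the promoters of most of these genes, the promoters were searched for its binding letters. RefSeq promoters (GRCr8) matched 5 of the 10 members by symbol: Lhcgr, Cyp11a1, Hsd17b3, Insl3 and Nr5a1. The 3 below, each 250 bases that end just before the start site and are written 5′ to 3′ on the gene's own strand, are shown because each holds the core AGGTCA. Capitals mark that core, or its reverse complement TGACCT.
Lhcgr chr6:11415165-11415414 (+ strand): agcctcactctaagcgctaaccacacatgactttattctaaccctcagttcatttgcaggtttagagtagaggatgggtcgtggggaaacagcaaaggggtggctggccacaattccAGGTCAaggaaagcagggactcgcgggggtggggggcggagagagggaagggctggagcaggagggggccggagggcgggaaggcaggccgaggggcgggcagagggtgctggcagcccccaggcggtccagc
Cyp11a1 chr8:67318415-67318664 (+ strand): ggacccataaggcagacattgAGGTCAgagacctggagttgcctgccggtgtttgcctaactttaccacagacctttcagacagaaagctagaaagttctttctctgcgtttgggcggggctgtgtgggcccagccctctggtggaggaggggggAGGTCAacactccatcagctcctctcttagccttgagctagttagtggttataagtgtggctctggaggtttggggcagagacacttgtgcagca
Insl3 chr16:18432939-18433188 (+ strand): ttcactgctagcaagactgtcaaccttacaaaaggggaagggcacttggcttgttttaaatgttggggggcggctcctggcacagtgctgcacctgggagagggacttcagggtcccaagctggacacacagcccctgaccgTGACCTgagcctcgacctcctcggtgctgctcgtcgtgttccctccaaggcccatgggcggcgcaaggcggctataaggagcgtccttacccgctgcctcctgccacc
The core begins 133 bases before the Lhcgr start, 229 and 95 bases before the Cyp11a1 start, and, on the reverse strand, its match begins 108 bases before the Insl3 start. AGGTCA was present on either strand in 3 of 5 members and in 14.06% of 33469 RefSeq promoters of this length. The search with this core was added after longer motifs had been tried and the sequences read. The longer forms that contain it, AAGGTCA (3.992% of promoters) and CAAGGTCA (1.327%), were in 0 of 5 members. So were the cyclic AMP response element TGACGTCA (1.587%), its shorter part TGACGT (6.947%), the GATA motif AGATAA (10.3%) and TATAAA (12.93%). These are matches of letters in one window, and nothing about binding was measured. Cyp17a1, Star and Cyp19a1 had no promoter to search, so the matches cannot bear on which members moved together.

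Values are CPM, the counts of a gene relative to those of its whole library, after trimmed-mean scaling within an organ-sex set. A library held 4803807 to 10929957 counts over all 70, 5519794 to 7815011 among the ovaries and 7432039 to 10929957 among the testes. A count of 0 in an ovary allows up to 3 reads, or 0.343 to 0.552 CPM. One tag is counted per transcript, so levels do not grow with transcript length; levels are compared below for the same gene only. Groups of 3 are compared with edgeR's quasi-likelihood test over all genes of the set. A gene is called where its Benjamini-Hochberg adjusted p is under 0.05, and differences are on the log2 scale as treated minus vehicle, with the standard error (SE) and 95% interval. Mean levels carry the SD over n = 3 rats.

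Transcripts of other organs and the ribosomal RNA share moved with the groups. Tnp1, a transcript of late spermatids not of the ovary, was at 222, 527 and 0.490 CPM in vehicle ovaries 1, 2 and 3, at 39.3, 0.519 and 3.80 in BPA and at 2.34, 23.9 and 2.39 in Mix, against 33273 to 58269 CPM in the testes. Alb, made by liver, was at 145, 232 and 2.12 CPM in the same vehicle ovaries and at 1.26 to 61.0 CPM in the treated ones. The share of counts on ribosomal RNA rows averaged 24.6 ± 4.39% over vehicle, 16.7 ± 3.70% over BPA and 21.5 ± 2.63% over Mix ovaries. Their part in the results below was not tested. Values without vehicle ovaries 1 and 2, an alternative added after seeing the data, are given beside the results they move. That alternative leaves only vehicle ovary 3, so its differences rest on 1 vehicle rat and are given as sizes only.

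The LH receptor was much higher in both treated groups than in vehicle ovaries. Lhcgr was at 4.98, 2.21 and 1.63 CPM in the vehicle ovaries, at 50.1, 35.5 and 24.9 CPM with BPA and at 20.8, 57.3 and 32.3 CPM with Mix. All 6 treated ovaries were above every vehicle ovary, and the BPA and Mix ovaries overlapped. Means were 2.94 ± 1.79 CPM for vehicle, 36.9 ± 12.7 for BPA and 36.8 ± 18.7 for Mix, which gave log2 differences of 3.62 ± 0.46 (SE; 95% interval 2.62 to 4.63; 12.3-fold) and 3.62 ± 0.46 (2.61 to 4.62; 12.3-fold). Mix minus BPA was -0.01 ± 0.38 (-0.83 to 0.81). Vehicle levels rested on 33, 12 and 10 reads. Vehicle ovary 1 set much of their mean: without it the difference was 4.26 for either treatment, and without vehicle ovaries 1 and 2 it was 4.49 for BPA and 4.48 for Mix. In whole ovaries, more cells of a type and more RNA per cell cannot be told apart.

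Cyp17a1, the 17-hydroxylase and lyase that makes androgen, differed most of the members tested in the ovary. It was at 5.13, 3.13 and 1.80 CPM in vehicle ovaries (34, 17 and 11 reads), at 80.4, 229 and 94.6 CPM with BPA and at 125.9, 124 and 265 CPM with Mix. Every treated ovary was above every vehicle ovary, and the treated groups overlapped. Means were 3.35 ± 1.68, 135 ± 81.9 and 172 ± 81.0 CPM. The log2 difference was 5.30 ± 0.52 for BPA (4.18 to 6.43; 39.5-fold) and 5.66 ± 0.52 for Mix (4.52 to 6.79; 50.5-fold), and Mix minus BPA was 0.35 ± 0.39 (-0.49 to 1.20). BPA ovary 2 was the highest of its group, and without it the BPA difference was 4.68. Without vehicle ovaries 1 and 2 the differences were 6.21 and 6.56, set against the 11 reads of vehicle ovary 3 alone. The filter on low counts stood at 1.48 CPM in the ovary before trimmed-mean scaling, on which scale vehicle ovary 3 held Lhcgr at 1.44 CPM; 3 of 3 vehicle ovaries reached it for Cyp17a1 and for Cyp19a1, and 2 of 3 for Lhcgr.

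**Figure D1:**
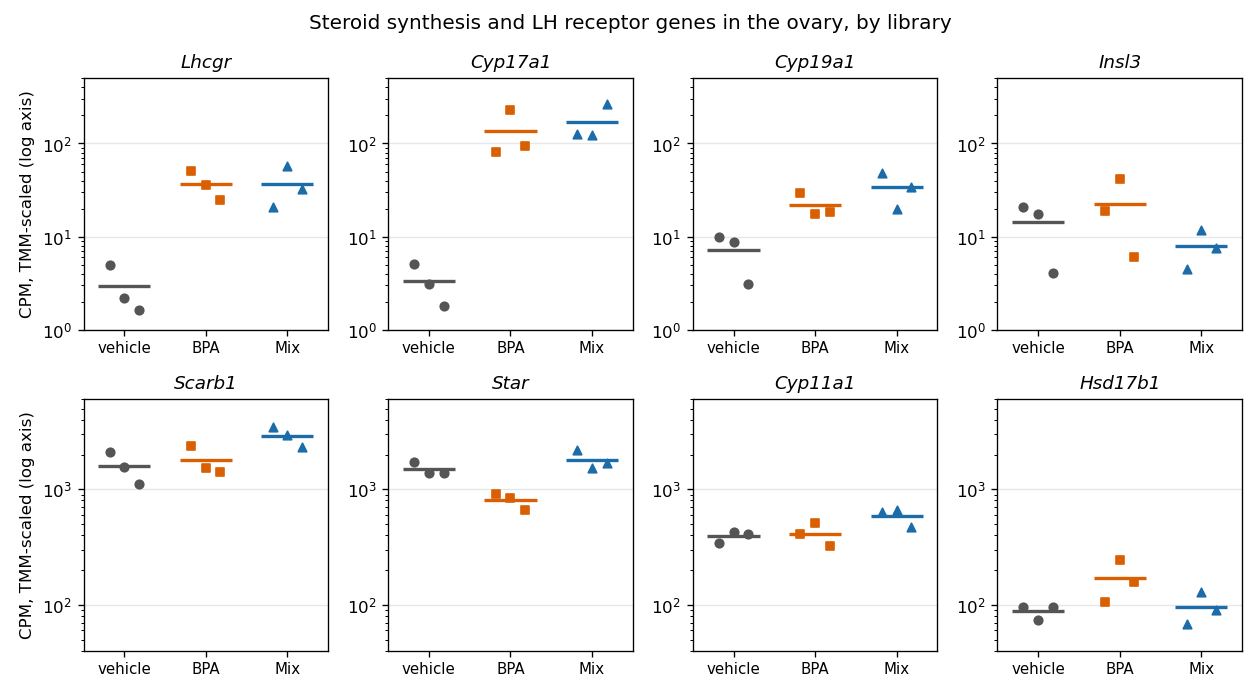
Level of 8 members in each ovary, in CPM on a log axis (circles, vehicle; squares, BPA; triangles, Mix; lines, means of 3 rats). Lhcgr, Cyp17a1 and Cyp19a1 were higher in all 6 treated ovaries than in any vehicle ovary, and Star was lowest in the 3 BPA ovaries.

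Aromatase was also higher, by less. Cyp19a1 was at 9.95, 8.65 and 3.10 CPM in vehicle ovaries, at 29.4, 17.7 and 18.4 CPM with BPA and at 48.3, 19.8 and 33.8 CPM with Mix. No treated ovary was as low as a vehicle ovary. The means of 7.23 ± 3.64, 21.8 ± 6.59 and 34.0 ± 14.2 CPM gave differences of 1.60 ± 0.41 for BPA (0.71 to 2.48; 3.02-fold) and 2.23 ± 0.41 for Mix (1.34 to 3.12; 4.69-fold). Mix minus BPA was 0.63 ± 0.38 (-0.19 to 1.45). The BPA difference kept its call in 10 of 18 alternatives: the call ended when vehicle 2, vehicle 3, any 1 BPA ovary or Mix 3 was left out, with values of 1.23 to 1.91 over the 9 omissions, and it ended once the ribosomal RNA share was a covariate, where the difference was 0.90. Without vehicle ovaries 1 and 2 the differences from the 1 vehicle ovary left were 2.82 and 3.44. That fit is among the 18 alternatives, but its calls are not relied on. The Mix difference was called in 18 of 18 alternatives.

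Star, the cholesterol transporter that limits the rate of acute steroid synthesis, separated BPA from both other groups. It was at 1721, 1396 and 1382 CPM in vehicle ovaries, at 907, 838 and 663 CPM with BPA and at 2194, 1532 and 1696 CPM with Mix. All 3 BPA ovaries were below every vehicle and Mix ovary, and vehicle and Mix overlapped. From means of 1499.6 ± 192, 802 ± 125.8 and 1807 ± 345 CPM, the difference was -0.90 ± 0.18 for BPA (-1.29 to -0.51; 0.535 of vehicle) and 0.27 ± 0.18 for Mix (-0.12 to 0.66). Mix minus BPA was 1.17 ± 0.18 (0.78 to 1.56; 2.25-fold). The BPA call ended without BPA ovary 2 and without BPA ovary 3, and the difference ranged from -1.29 to -0.77 over 18 alternatives. The call between Mix and BPA ended without BPA 2, BPA 3 or Mix 1 (1.01 to 1.28 over the 9 omissions).

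The other enzymes and the cholesterol receptor moved less, and edgeR called none of them in the main comparison. Scarb1 was at 2107, 1572 and 1105 CPM in vehicle ovaries, at 2382, 1541 and 1419 CPM with BPA and at 3441, 2922 and 2339 CPM with Mix. The Mix ovaries were above all vehicle ovaries, at 0.86 ± 0.25 (0.31 to 1.41; 1.82-fold), while BPA overlapped vehicle at 0.16 ± 0.25 (-0.39 to 0.70), a value that became -0.37 once the ribosomal RNA share was a covariate. Cyp11a1, the first enzyme, showed the same order: 339.8, 427 and 410.2 CPM in vehicle, 407, 513 and 322 CPM in BPA and 631, 661 and 467 CPM in Mix. Its Mix difference was 0.58 ± 0.19 (0.16 to 0.99; 1.49-fold) without overlap, and its BPA difference 0.08 ± 0.19 (-0.34 to 0.49). The interval of Mix minus BPA lay above 0 for both, at 0.70 ± 0.25 (0.16 to 1.25) for Scarb1 and 0.50 ± 0.19 (0.09 to 0.92) for Cyp11a1. DESeq2 called both in Mix against vehicle, and edgeR called Scarb1 there with no filter, without vehicle ovary 1 or without BPA ovary 1. With the replicate number as a block, edgeR also called more members with Mix than in the main comparison.

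Hsd17b1, which makes oestradiol from oestrone in granulosa cells, was highest with BPA. It was at 95.1, 73.4 and 96.4 CPM in vehicle, at 105, 244 and 159 CPM in BPA and at 68.8, 130.0 and 89.4 CPM in Mix. BPA did not overlap vehicle, with a difference of 0.93 ± 0.28 (0.32 to 1.55; 1.91-fold) that edgeR did not call in the main comparison; DESeq2 called it, and so did edgeR with no filter, without BPA ovary 1 or without Mix ovary 2. Mix was at 0.12 ± 0.28 (-0.49 to 0.73). Insl3 had no clear order. It was at 20.96, 17.7 and 4.08 CPM in vehicle, at 18.9, 41.7 and 6.09 CPM in BPA and at 4.54, 11.7 and 7.50 CPM in Mix, and every pair of groups overlapped. The differences of 0.64 ± 0.63 (-0.72 to 1.99) and -0.84 ± 0.65 (-2.24 to 0.56) changed sign to -0.18 without BPA ovary 2 and to 0.95 without vehicle ovaries 1 and 2.

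The last 2 members were too low in the ovary to pass the filter. Hsd17b3, the testicular enzyme, was at 0.302, 1.66 and 0.326 CPM in vehicle, at most at 0.519 CPM with BPA and at most at 0.389 CPM with Mix. Nr5a1 was at 0 in all 3 vehicle ovaries, at 0, 0.173 and 0.913 CPM in BPA and at 0.130, 0.528 and 0.319 CPM in Mix, which is too few reads for a fold. Nr5a1 is a defining gene of steroid-making cells, yet this table gives it next to no counts in either gonad, and 0 in every liver, kidney and thyroid library. Whether the annotation used for counting covers the 3′ end of Nr5a1 was not tested, so these zeros are not read as absence.

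Counted together, 8 of the 10 members passed the filter in the ovary. With BPA, edgeR called 3 of them higher (Cyp17a1, Lhcgr and Cyp19a1) beside 2.91% of 10871 genes called higher, and 1 lower (Star) beside 3.88% called lower; 4 in all stood beside 6.79%. With Mix, 3 were called higher (the same Cyp17a1, Lhcgr and Cyp19a1) beside 4.13% called higher and 9.12% called in either direction. Between Mix and BPA, 1 was called higher (Star) beside 0.0644%, and 0.212% of genes were called in either direction. Groups did not overlap for 5 members with BPA (4 higher, Star lower) beside 27.9% of genes, for 5 with Mix (all higher) beside 29.0%, and for 1 between Mix and BPA (Star) beside 18.8%. Because the members were chosen with these values known, nothing is read from these counts. The median difference of the 8 was 0.78 for BPA and 0.72 for Mix, against 0.01 for all genes in each. Both treatments were compared with the same 3 vehicle ovaries, so their differences share that error.

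**Figure D2:**
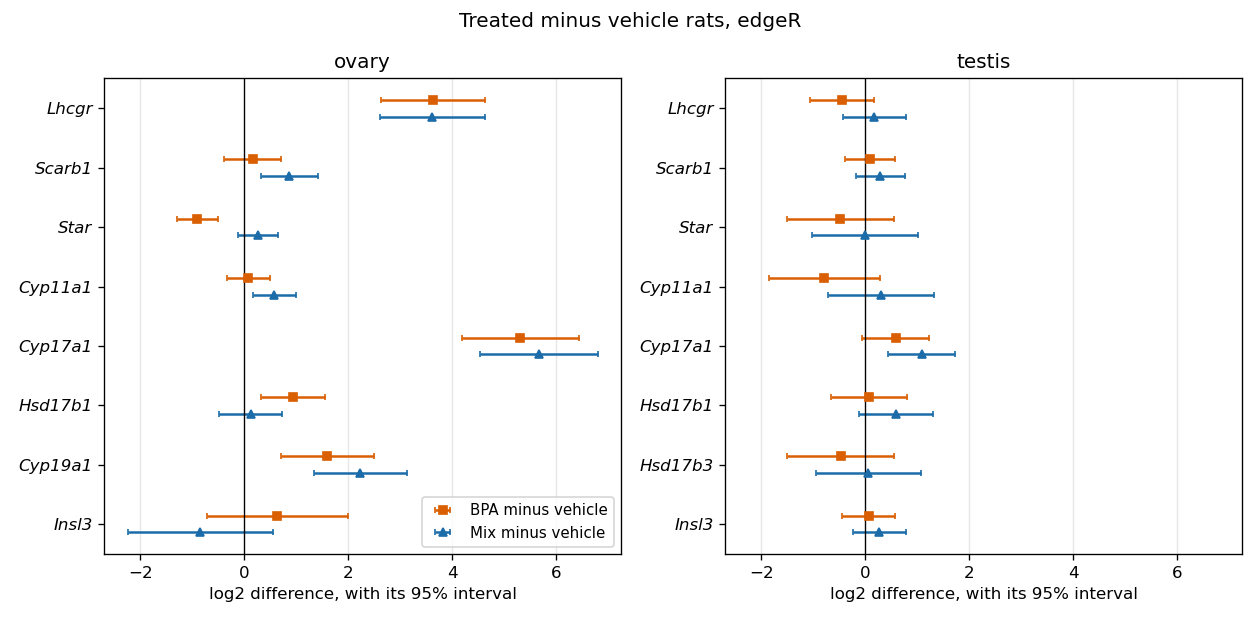
Log2 difference from vehicle for the members that passed the filter in ovary and testis, with 95% intervals (squares, BPA; triangles, Mix). In the ovary the intervals of Lhcgr, Cyp17a1 and Cyp19a1 lie above 0 for both treatments, and that of Star lies below 0 for BPA alone; in the testis the Mix interval of Cyp17a1 lies above 0.

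Across the 9 ovaries r was high between the members called higher, as follows from the step between vehicle and treated rats for which they were called. Pearson's r of log2(CPM + 1) was 0.937 between Cyp17a1 and Lhcgr, 0.856 between Cyp17a1 and Cyp19a1 and 0.808 between Lhcgr and Cyp19a1. Star had r of -0.203 to Cyp17a1 and -0.746 to Hsd17b1, but 0.544 to Scarb1 and 0.469 to Cyp11a1. These 9 libraries share groups and scaling, and no p is given. No r within groups was computed, so these values do not show movement together beyond the differences between groups. The genes most like a member, below, were ranked over the same points. Among 7483 genes with a mean of at least 10 CPM, those most like Cyp17a1 were Ephx1 (r 0.984), Stxbp3 (0.967) and Gsta5 (0.965), and those most like Lhcgr were Nono (0.966), Smarca1 (0.953) and Gsta5 (0.951). Ephx1, microsomal epoxide hydrolase, was at 32.9, 34.4 and 26.3 CPM in vehicle, at 122, 174 and 112.7 CPM in BPA and at 106, 98.7 and 174 CPM in Mix. Cyp19a1 was most like Atp2a2 (0.989), Igf1r (0.972) and Camsap2 (0.971). Star was most like Slc25a39 (0.952), Cyp11a1 like Peli1 (0.953), Scarb1 like Pias1 (0.955), Hsd17b1 like Mesdc2 (0.923) and Insl3 like Dnajc11 (0.948).

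Markers of the cell types that hold the members also differed between groups. The summed level of 14 granulosa markers spanned 1991–2867 CPM (lowest to highest of 3) over vehicle ovaries, 3422–5067 over BPA ovaries and 2159–3061 over Mix ovaries. BPA lay above both, with Amh, Gja1, Fshr and Inhba called higher by edgeR and Nap1l5 lower; with Mix, Nr5a2 and Fst were called lower. The 12 theca markers ran from 1421 to 2261, 1516 to 1585 and 1670 to 2277 CPM, and the groups overlapped. Most of each sum was Mgp, at 1087–1905, 1071–1166 and 1293–1838 CPM. Among the 12 theca markers Aldh1a1 was called higher in both treatments (1.88 and 1.49). With BPA Bmp4 was called higher (0.85) and Colec12 lower (-0.95). The other theca markers were not called, and neither Cyp17a1 nor Lhcgr is on that list.

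Luteal and ovulatory lists gave a further contrast. The 10 luteal markers in the table spanned 10634–12583 CPM over vehicle ovaries, 8962–10279 over BPA ovaries and 12914–14426 over Mix ovaries, an order like that of Star, and most of the sum was Hsd3b1 (6970.1 to 8578, 7036 to 8344 and 9758 to 11470.0 CPM). Sfrp4 and Timp1 of that list were nevertheless called lower in both treatments, Fdx1 lower with BPA, and Prlr higher in both. Of its 9 genes that were tested, 3 lay above vehicle and 6 below with BPA (median -0.35). With Mix 4 lay above and 5 below (median -0.29), so the order of the sums is not that of the list as a whole. The 15 genes of the LH surge in ovulating follicles ran from 683 to 742 CPM in vehicle, 581 to 645 in BPA and 442 to 501 in Mix, with 12, 13 and 12 of them holding any count. All treated ovaries were below every vehicle ovary on that sum, but most of it was Cited2, at 477–516, 382–403 and 172–244 CPM in the 3 groups. Of the 8 genes of the list that passed the filter, 5 lay above vehicle and 3 below with BPA (median 0.27), and 3 above and 5 below with Mix (median -0.19). Single genes went both ways: Ptx3 was called higher with BPA, and with Mix Runx2 was called higher and Cited2 and Runx1 lower. The 10 oocyte markers in the table ran from 17.8 to 28.1, 24.0 to 41.0 and 15.1 to 37.8 CPM.

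Markers of neighbouring or foreign tissue were also summed. The 10 male germ cell markers spanned 16.0–632.6 CPM over vehicle ovaries, 8.83–60.0 over BPA ovaries and 15.3–43.7 over Mix ovaries, and the 7 liver markers from 5.55 to 479, 5.17 to 36.4 and 5.94 to 106 CPM. Over the 6 tested of each list, the median difference was -2.89 with BPA and -3.61 with Mix for germ cell markers. For liver markers it was -4.13 and -2.47. With BPA, Sycp3 of the germ cell list and Ttr and Serpina1 of the liver list were called lower, beside 3.88% of all genes. With Mix 0 of either list were called. The 10 adrenal markers ran from 235 to 258, 122 to 194 and 194 to 231 CPM, most of it Mrap, while the adrenal enzymes were at most 0.368 CPM for Cyp11b1 and 3.50 CPM for Cyp21a1; 4, 6 and 5 adrenal markers were at 0. The 7 fat markers ran from 79.9 to 104, 28.6 to 75.6 and 12.9 to 133 CPM. The 7 peritubular and vascular markers ran from 460.1 to 922, 521 to 830.2 and 862 to 1019 CPM, and Myh11 (1.24) and Cdh5 (1.22) among them were called higher with Mix. Their median difference was 0.48 with BPA and 0.35 with Mix. The 5 oviduct and uterus markers in the table ran from 6.33 to 13.4, 2.13 to 49.6 and 3.83 to 47.1 CPM, with medians of 1.69 and 1.34 over the 3 that were tested and 0 called. The 6 epididymis markers stayed at or under 11.7 CPM, and the 8 blood and macrophage markers ran from 3296 to 6938, 1629 to 8710 and 2007 to 4826 CPM. How the cell mix enters the members' differences was not tested.

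**Figure D3:**
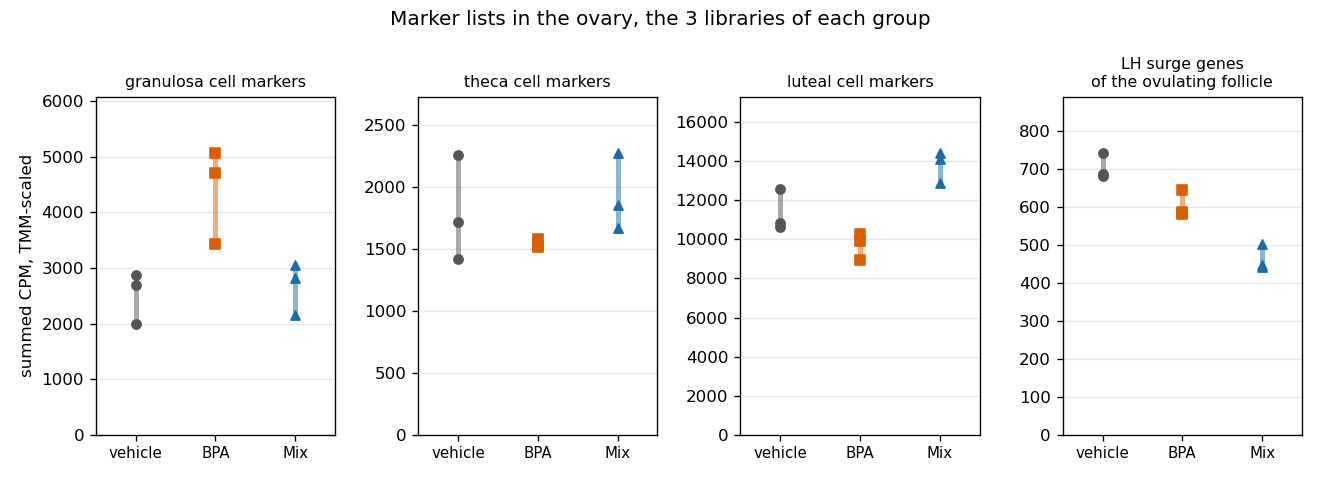
Summed CPM of granulosa, theca, luteal and LH surge marker lists in each ovary (3 rats per group, axis from 0). Granulosa sums are highest with BPA (3422 to 5067). Luteal sums, most of each being Hsd3b1, are highest with Mix (12914 to 14426). Theca sums, most of each being Mgp, overlap.

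Genes around the members in the same pathway were also tested. Their lists too were drawn up with earlier results of these libraries known. Their adjusted p-values are therefore printed as a description and are not independent support for the members' differences. Of 87 listed genes 82 were in the table and 70 were tested in the ovary. With BPA 7 were called higher and 6 lower, with Mix 9 higher and 6 lower, and between Mix and BPA 1 was called higher, beside 6.79%, 9.12% and 0.212% of all genes called in either direction; the median difference was 0.02, 0.18 and 0.16. The BPA count changed with the fit. It was 3 to 6 rather than 13 when vehicle 1, 2 or 3, BPA 2 or BPA 3 was left out. Once the ribosomal RNA share was a covariate it was 0. The Mix count of 15 was 4 to 7 without vehicle 2, vehicle 3, Mix 1 or Mix 3. The share of all genes called in those fits is not given here, so these falls are not read as particular to the listed genes. The fit without vehicle ovaries 1 and 2 leaves 1 vehicle ovary, so its counts are not read.

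Among 17 other steroid synthesis genes, 1 was called higher and 3 lower with each treatment. Hsd17b7, which acts on oestrone and in cholesterol synthesis, was at 4.07, 4.23 and 4.24 CPM in vehicle, at 10.1, 15.6 and 11.6 CPM in BPA and at 23.4, 18.6 and 29.5 CPM in Mix. It rose by 1.56 ± 0.28 with BPA (edgeR adjusted p = 0.00855) and by 2.50 ± 0.28 with Mix (adjusted p = 0.000844), with no overlap between any groups. Srd5a1, which reduces progesterone and testosterone, fell from 77.5, 70.7 and 52.7 CPM to 18.1, 24.8 and 34.8 CPM with BPA (-1.37 ± 0.23, adjusted p = 0.00579) and to 19.9, 22.7 and 21.1 CPM with Mix (-1.66 ± 0.23, adjusted p = 0.0022). Both genes kept their calls in all 9 fits that left out an ovary. Neither kept its BPA call once the ribosomal RNA share was a covariate. Fdx1, the electron donor of Cyp11a1, fell with BPA (-0.82 ± 0.21, adjusted p = 0.0364), as did Hsd11b1 (-1.33 ± 0.34, adjusted p = 0.038). Without BPA ovary 1 the difference of Hsd11b1 was -2.07. With Mix, Tspo (-0.70 ± 0.17, adjusted p = 0.0256) and Hsd17b2, which inactivates oestradiol (-2.41 ± 0.69, adjusted p = 0.0477), fell.

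Of 15 cholesterol supply genes, 0 were called with BPA and 2 with Mix. Hmgcs1, an enzyme of cholesterol synthesis, rose by 1.02 ± 0.24 with Mix (adjusted p = 0.0202). Of 18 gonadotropin signalling genes, 2 were called higher and 1 lower with BPA, and 3 higher and 1 lower with Mix. Prlr, the prolactin receptor of luteal cells, was at 157, 125 and 111.5 CPM in vehicle, at 216, 257 and 221 CPM in BPA and at 313, 253 and 382 CPM in Mix, and rose with both (0.82 ± 0.18, adjusted p = 0.0192; 1.27 ± 0.18, adjusted p = 0.00225). Fshr, the follicle-stimulating hormone receptor, rose with BPA (1.58 ± 0.31, adjusted p = 0.0133) from 4.60 to 7.02 CPM to 13.5 to 23.4 CPM. Lhb, the beta subunit of LH, was called higher with Mix (5.16 ± 1.50, adjusted p = 0.0499), but stood at 36.5 CPM in Mix ovary 1 and at most 1.83 CPM in any other ovary; without that ovary its difference was 0.76.

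Of 20 regulators, 4 were called higher and 2 lower with BPA, and 3 higher and 2 lower with Mix. Foxo1 (1.56 ± 0.29, adjusted p = 0.0105), Cebpa (0.73 ± 0.15, adjusted p = 0.0141), Inhba (1.45 ± 0.36, adjusted p = 0.0309) and Nr0b1, a repressor of SF-1 (2.18 ± 0.56, adjusted p = 0.0368), rose with BPA. Runx2, which the LH surge induces, was at 78.4, 52.3 and 67.1 CPM in vehicle, at 81.4, 88.8 and 99.2 CPM in BPA and at 204, 142 and 205 CPM in Mix. It rose by 1.48 ± 0.19 with Mix (adjusted p = 0.00142) and was the 1 companion called between Mix and BPA (1.03 ± 0.18, adjusted p = 0.0413). Crem fell with both treatments (-0.57 and -0.65), Dusp1 with BPA (-0.70) and Nr5a2, a close relative of Nr5a1, with Mix (-0.65).

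**Figure D4:**
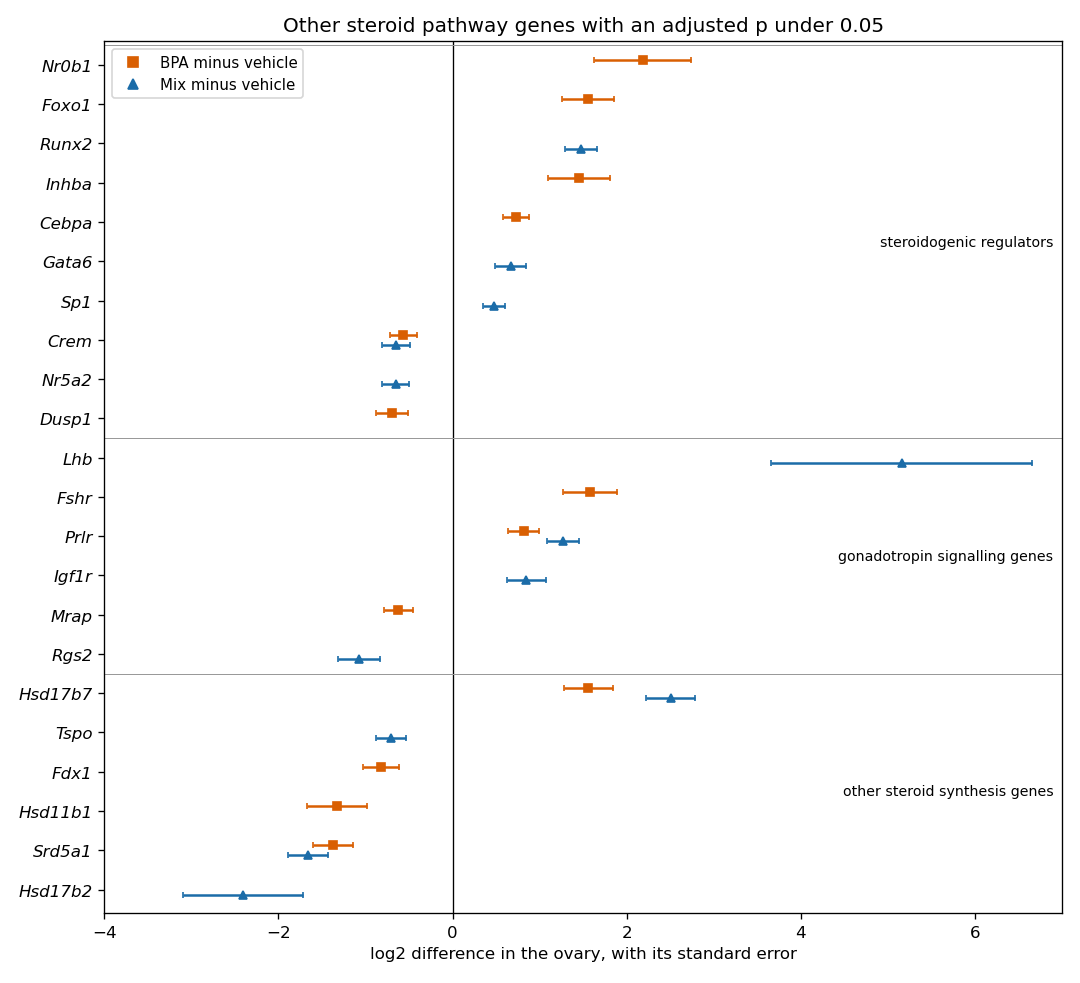
Ovary log2 differences ± SE of other steroid synthesis, gonadotropin signalling and regulator genes, drawn only for comparisons with an edgeR adjusted p under 0.05 (squares, BPA; triangles, Mix). Hsd17b7 and Prlr lie above 0 and Srd5a1 below 0 for both treatments.

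In the testis, where Leydig cells respond to LH, edgeR called 0 of the 8 members that passed the filter in all 3 comparisons, beside 0% of 11098 genes for BPA, 0% for Mix and 0.775% between Mix and BPA. Members with an unadjusted p under 0.05 numbered 0 with BPA (12.0% of genes) and 1 with Mix (Cyp17a1, 5.33%). Between Mix and BPA there was 1 (Cyp11a1, 17.2%). DESeq2 called 0 members in each, beside 104, 19 and 447 genes in all. Groups did not overlap for 0 members with BPA (18.4% of genes), 1 with Mix (Hsd17b1; 12.2%) and 0 between Mix and BPA (17.7%). Leydig marker sums spanned 1550–1706 CPM over vehicle testes, 1441–1798 over BPA testes and 1708–1828 over Mix testes. Most of each sum was Stard6, at 1169–1297, 1100–1323 and 1324–1455 CPM, while Hsd3b1 of the same list was at 51.4 to 99.9 CPM. Whether Stard6 came from Leydig cells was not tested, so the sums are not read as a level of Leydig cells. None of 63 companion genes tested was called in the testis in the 3 comparisons.

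Testis Cyp17a1 was at 62.3, 54.5 and 80.0 CPM in vehicle, at 87.2, 139 and 68.8 CPM with BPA and at 75.2, 152 and 189.6 CPM with Mix. The groups overlapped, through Mix testis 1 and BPA testis 3. The differences were 0.58 ± 0.30 for BPA (-0.07 to 1.23) and 1.08 ± 0.30 for Mix (0.43 to 1.73; 2.12-fold). Its vehicle mean of 65.6 ± 13.1 CPM was above the ovary's 3.35 ± 1.68 and below the means of both treated ovary groups, as a description across sets that were scaled separately. Insl3, the other abundant member, was at 166, 163 and 198 CPM in vehicle, at 145, 193 and 213 CPM with BPA and at 121, 237 and 277 CPM with Mix. Its differences of 0.06 ± 0.24 (-0.45 to 0.57) and 0.27 ± 0.24 (-0.24 to 0.78) leave room for changes of either sign.

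The LH receptor in testis showed none of the step seen in the ovary. Lhcgr was at 7.99, 9.19 and 5.53 CPM in vehicle, at 7.01, 5.62 and 3.99 CPM with BPA and at 6.86, 7.65 and 11.1 CPM with Mix. All groups overlapped, with differences of -0.44 ± 0.29 (-1.06 to 0.17) and 0.17 ± 0.28 (-0.43 to 0.78). Those intervals end far below the ovary's differences, though the 2 organs were not set against each other in a test. Star was at 22.9, 13.4 and 11.1, at 7.22, 18.5 and 8.12, and at 5.88, 12.6 and 28.3 CPM in the 3 groups. Cyp11a1 was at 3.35, 5.75 and 2.21, at 3.34, 1.87 and 1.29, and at 1.96, 5.48 and 6.57 CPM. Neither gene showed an order beyond its spread against vehicle.

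The remaining testis members were low and varied within groups. Scarb1 ran from 15.8 to 20.9 CPM in vehicle, 15.1 to 26.4 CPM with BPA and 18.8 to 29.1 CPM with Mix. Hsd17b3, the Leydig enzyme that makes testosterone, was at 4.32, 6.72 and 5.73 CPM in vehicle, at 7.76, 2.23 and 1.93 CPM with BPA and at 3.36, 8.67 and 5.44 CPM with Mix. BPA testis 1 was apart from its group for that gene; without it Mix minus BPA was 1.48 and was called. Hsd17b1 was at 2.56 to 3.22 CPM in vehicle and at 3.67 to 5.60 CPM with Mix (0.60 ± 0.33, -0.11 to 1.31). Cyp19a1 stayed at or under 0.387 CPM and Nr5a1 at or under 0.515 CPM in every testis. The ribosomal RNA share was 2.62%, 4.54% and 4.51% in the 3 groups.

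Outside the gonads Cyp17a1 in liver, Scarb1 in every organ and Hsd17b1 in kidney had clear counts, and most other members were near 0 in vehicle rats. In vehicle rats Cyp17a1 stood at 65.6 ± 13.1 CPM in testis, 52.5 ± 9.51 in female liver, 25.0 ± 7.23 in male liver, 3.35 ± 1.68 in ovary and under 2 on average in thyroids and kidneys. Testis and female liver overlapped, as did ovary and thyroids, while female and male liver did not. Scarb1 was at 1595 ± 502 CPM in ovary, 47.5 ± 4.59 in male liver, 29.5 ± 2.98 in female liver, 23.2 ± 7.41 in male thyroid and 19.2 ± 2.89 in testis, and lower in female thyroid and kidneys. Sets were scaled separately, so the order is a description. Hsd17b1 followed ovary (88.3 ± 12.9) with male kidney (27.5 ± 12.4), and Insl3 followed testis (176 ± 19.7) with ovary (14.2 ± 8.95). Lhcgr was higher in vehicle testes (7.57 ± 1.87) than in vehicle ovaries without overlap, and was 0 in every liver.

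**Figure D5:**
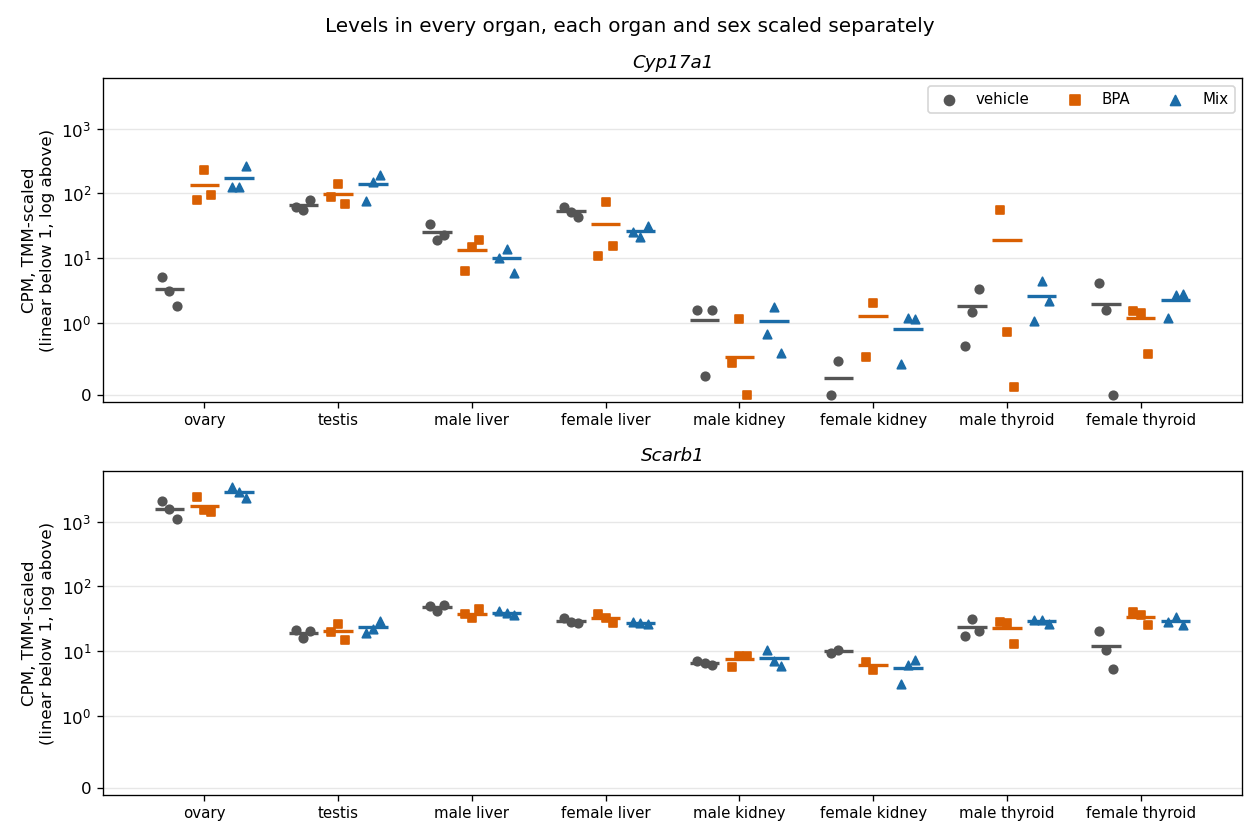
Cyp17a1 and Scarb1 in each library of the 8 organ-sex sets, in CPM on an axis that is linear below 1 and logarithmic above (circles, vehicle; squares, BPA; triangles, Mix; lines, means). The step between vehicle and treated Cyp17a1 in the ovary is opposite to that in male liver, where the vehicle mean of 25.0 is above 13.3 and 9.85.

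In liver, Cyp17a1 ran the other way from the ovary. In male liver it was at 33.2, 19.3 and 22.6 CPM in vehicle, at 6.21, 15.0 and 18.7 CPM with BPA and at 10.02, 13.6 and 5.95 CPM with Mix. No treated male liver reached a vehicle one, with differences of -0.91 ± 0.37 (-1.71 to -0.12) and -1.35 ± 0.38 (-2.16 to -0.55); 13.9% of genes with BPA and 11.9% with Mix did not overlap in that organ. In female liver it was at 62.3, 52.0 and 43.3 CPM in vehicle, at 10.7, 74.4 and 15.2 CPM with BPA and at 25.2, 21.5 and 31.1 CPM with Mix. BPA female liver 2 was above all vehicle livers; without it the difference was -2.03 and was called, against -0.65 ± 0.51 with it. The Mix livers did not overlap vehicle (-1.02 ± 0.51, -2.11 to 0.07), as was so for 14.6% of genes.

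Scarb1 was lower in both treated groups than in vehicle in female kidney, at 9.31 and 10.6 CPM in vehicle, 6.85 and 5.15 CPM with BPA and 3.09, 5.98 and 7.28 CPM with Mix. With 2 vehicle kidneys, 44.5% of all genes did not overlap with BPA and 27.1% with Mix. Hsd17b1 was at 8.90 and 2.79 CPM, 8.96 and 19.0 CPM, and 4.35, 4.15 and 7.56 CPM in the same kidneys. In male liver Scarb1 was at 49.4, 42.3 and 50.9 CPM in vehicle and at 41.8, 38.4 and 36.5 CPM with Mix, again without overlap. The female thyroid went the other way, at 20.5, 10.3 and 5.34 CPM in vehicle, 40.04, 35.8 and 25.2 CPM with BPA and 28.4, 33.3 and 25.7 CPM with Mix. There 14.1% of genes with BPA and 29.2% with Mix did not overlap. The thyroid differences of Scarb1 were 1.48 ± 0.44 (0.49 to 2.47) and 1.27 ± 0.44 (0.29 to 2.26), and were called only without vehicle female thyroid 1 (2.12 and 1.96). These thyroids held testis transcripts: Tnp1 was at 2752, 1564 and 0.137 CPM in the same 3 vehicle libraries. The ribosomal RNA share of female thyroids averaged 1.63 ± 1.42% over vehicle, 4.89 ± 2.76% over BPA and 17.3 ± 6.07% over Mix. Its part in the Scarb1 differences was not tested. In male thyroid BPA library 1, where Tnp1 stood at 10502 CPM, Cyp17a1 was at 56.0 CPM and Insl3 at 91.5 CPM, against at most 4.44 and 2.24 CPM in the other male thyroids.

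Over the 18 comparisons of liver, kidney and thyroid there were 51 tests of members, and edgeR called 0, beside 0.232% of 189450 gene tests pooled. At an unadjusted p under 0.05 there were 6 of 51, beside 10.9% of all tests: Cyp17a1 in male liver with both treatments, Scarb1 in female thyroid with both, Hsd17b1 in female kidney and Insl3 in male thyroid between Mix and BPA. DESeq2 called 1, Star in female thyroid with Mix, a gene of at most 4.64 CPM there. In that comparison DESeq2 called 1386 genes in all, where edgeR called 1 of 11127.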

How the data were processed

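Libraries of 3′ mRNA tags from 70 rat organs were analysed as read counts per gene that the authors deposited. Per the submitters' processing notes, FastQC, Bowtie2, bedtools and edgeR were used with the rn6 genome; versions, annotation, strand and handling of multiply mapped reads are not given in the sources used here, so reads of near-identical or overlapping genes may be shared. Groups came from the sample labels. From the deposited counts, a model per organ-sex set (8 in all) was made in edgeR 4.0.16 under R 4.3.3 (filterByExpr, TMM scaling, 3 groups in one quasi-likelihood fit, Benjamini-Hochberg adjustment over all genes tested). DESeq2 1.42.0, upper-quartile scaling, no filter, a fit of 2 groups alone, ribosomal RNA rows removed or their share as a covariate, a replicate block and each rat left out were the alternatives.

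The members and all gene lists were chosen with earlier results of these data known. Named were all 10 members, up to 4 called genes per direction of each pathway list by smallest p (mean log2 CPM 2 or more), the sums of the marker lists, and the 3 genes most like a member by r; Ephx1's levels and the marker genes named singly were picked out after their values were seen. On counts simulated for the ovary comparison of BPA with vehicle (10628 genes), 45 of 96 genes changed by 1 on the log2 scale (46.9%) and 83 of 99 changed by 2 (83.8%) were called, with 6 unchanged genes. No label says that the rats of a group came from separate litters, so p-values measure the spread between these rats. Intervals on counts and floors cover counting error only. Promoter windows were read from RefSeq sequences of GRCr8, a later build than rn6, so no coordinates were carried between them. The values of 1 called gene are not reported here.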

Additional observations from a re-analysis of the deposited data

Results flagged for a closer look

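The same gene moved in opposite directions in different organs under the same treatment, with every treated library above all vehicle libraries in one organ and below all of them in the other. Such separation from vehicle is common over all genes: with BPA it held for 27.9% in ovary, 13.9% in male liver, 44.5% in female kidney and 14.1% in female thyroid, and with Mix for 29.0%, 11.9%, 27.1% and 29.2%, and 14.6% in female liver. None of these differences between organs was tested, and the organs were scaled separately. Organs of the same sex came from the same rats, and that pairing was not used. For Cyp17a1 with BPA, the log2 difference in the ovary exceeded that in male liver by 6.22. With Mix it exceeded that in male liver by 7.01 and that in female liver by 6.68.

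Scarb1 showed the same kind of contrast at smaller size. With BPA the difference in female thyroid exceeded that in female kidney by 2.20. With Mix the ovary exceeded male liver by 1.15 and female kidney by 1.73, and female thyroid exceeded male liver by 1.56 and female kidney by 2.14. Vehicle female thyroids 1 and 2 held Tnp1 at 2752 and 1564 CPM, and came from the same rats as vehicle ovaries 1 and 2. The ribosomal RNA share of female thyroids averaged 1.63% over vehicle, 4.89% over BPA and 17.3% over Mix. The female kidney has 2 vehicle and 2 BPA rats. The part of any of these in the differences above was not tested. Groups of 3 are too small for a search for single outlying rats.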

How the results depend on the processing

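In the ovary, Cyp17a1 and Lhcgr were called for both treatments, and Cyp19a1 for Mix, in 18 of 18 alternatives, 1 of which was added after seeing the data. That added fit, without vehicle ovaries 1 and 2, leaves 1 vehicle ovary, so its calls are not relied on. No alternative reversed a called direction. With BPA, the 4 called members became as few as 2 with 1 rat left out. With Mix, the 3 became 4 with no filter and 5 with DESeq2, which called 1423 genes in all there. Between Mix and BPA, the 1 called member became 0 with 2 groups alone and at the lowest with 1 rat left out. Of the pathway genes, 13 called with BPA became 0 with the ribosomal RNA share and 3 to 16 with 1 rat left out. The 15 called with Mix became 4 to 20 with 1 rat left out. The 1 called between Mix and BPA became 4 with no filter and 8 with DESeq2, which called 280 genes in all there. It became 0 with upper-quartile scaling, the ribosomal RNA share or 2 groups alone, and 0 to 3 with 1 rat left out.

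In the testis, 0 called members between Mix and BPA became 1 (Hsd17b3) without BPA rat 1. The 0 pathway genes became 2 with BPA without that rat, and between Mix and BPA 1 with DESeq2, 1 with no filter, 1 with the ribosomal RNA share and 1 to 5 with 1 rat left out. In the other organs, 0 became 1 with DESeq2, 1 with no filter and 1 to 2 with 1 rat left out. The cause of these changes was not tested.

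Within an organ, replicate numbers did not pair rats across treatment groups. Between rats of the same number, r ran from -0.103 to 0.115 in the ovary, with 1 of 9 pairs over 0.1, and from -0.229 to 0.0475 in the testis. With the number as a replicate block, the ovary members called were 4, 5 and 2 for BPA, Mix and Mix against BPA, the pathway genes 12, 17 and 1, and the testis counts 0. Depth limits Lhcgr and Cyp17a1 in vehicle ovaries (10 to 34 reads). Nr5a1 and Hsd17b3 were too low there to fit.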
